A study of Mus musculus and Acomys cahirinus with 84 samples.

Results

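The subject here is the difference between 2 species in how cultured skin fibroblasts changed their RNA 24 h after 20 Gy of radiation. The species are A. cahirinus, a spiny mouse known for scar-poor skin regeneration, and C56BL6, a laboratory mouse as named in the labels. For each gene the value is the change at 20 Gy against untreated cells in A. cahirinus minus the same change in C56BL6. Of the 84 libraries of the series, 16 enter this difference: 4 untreated and 4 irradiated (20 Gy) libraries of each species, all collected at 24 h and all in batch B1.

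Every culture is labelled as primary skin fibroblasts, every library was a stranded mRNA library from polyA RNA, and the labels name no modified allele or transgene in either species. Age, sex and passage are not given in the sources used here. Within a species the untreated and the irradiated library with the same replicate number carry the same code in their library names, taken here as the animal, so 4 animals per species each gave 1 pair, and the test kept the animal as a block. Total counts ran from 27.86 M to 52.86 M per library (n = 16), and 18109 gene symbols were found once in each species' table. Values in CPM, counts of a gene scaled to the library's total, were set within each species' own table, since the tables were made on different genomes. Levels are therefore compared within a species, and only changes are compared between species.

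Ionising radiation breaks DNA. The kinases ATM and ATR signal the breaks to p53, a transcription factor that raises Cdkn1a, the inhibitor of cyclin-dependent kinases, and Mdm2, the ligase that returns p53 to a low level. Cdkn1a keeps RB-family proteins active, and these hold down the genes of DNA replication and, through the DREAM complex and loss of Foxm1 and Mybl2 activity, the genes of mitosis. In skin, fibroblasts that arrest after damage can also change the collagens, proteoglycans and cytokines they make.

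The labelled cell type was checked against marker genes before anything else. Fibroblast collagens were high in both species, with Col1a1 between 5911 and 10074 CPM in A. cahirinus and between 5639 and 9705 CPM in C56BL6. All 8 A. cahirinus libraries also held regulator genes of the skeletal muscle lineage, called muscle precursor genes below. Myod1 stood at 57.9 to 155 CPM, Myog at 168 to 468 CPM, Pax7 at 23.3 to 57.7 CPM and Myf5 at 6.72 to 67.6 CPM in that species. None of these 4 genes exceeded 0.0867 CPM in any C56BL6 library. The marker of mature muscle, Ckm, stayed under 1 CPM in both. The summed skeletal muscle list (5 of 5 genes measured) ran from 260 to 655 CPM in untreated and from 319 to 680 CPM in irradiated A. cahirinus cultures, ranges that overlap. Within pairs, Myf5 fell in all 4 A. cahirinus animals, by log2 changes of -0.96 to -0.67. Myod1 (-0.31 to 0.49), Myog (-0.10 to 0.29) and Pax7 (-0.15 to 0.13) moved both ways among the same pairs. The A. cahirinus cultures thus go against a label of fibroblasts alone, and the label is used below only as the name of the samples.

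C56BL6 replicate 1 stood apart in another way. Its libraries held the basal keratinocyte genes Krt5 at 137 CPM untreated and 95.2 CPM at 20 Gy, and Krt14 at 245 CPM and 164 CPM, while the other 6 C56BL6 libraries were at or under 0.0756 CPM for both. The summed keratinocyte list (8 of 8 genes measured) reached 385 CPM untreated and 263 CPM at 20 Gy in C56BL6 and at most 8.63 CPM in A. cahirinus. The fibroblast proteoglycan gene Lum was under 1 CPM in every C56BL6 library and between 35.2 and 283 CPM in A. cahirinus. The summed endothelial list (6 of 6 genes measured) reached 1.79 CPM in A. cahirinus and 5.8 CPM in C56BL6, where Kdr stood at 1.66 to 4.98 CPM and Tek at up to 2.07 CPM. The summed immune list (6 of 7 measured) reached 4.26 CPM in A. cahirinus and 24.8 CPM in C56BL6, where Csf1r stood at 5.42 to 22.8 CPM and Cd14 at up to 3.65 CPM. Pecam1, Cdh5, Vwf, Cldn5, Ptprc, Adgre1, Itgam and Cd3e stayed under 1 CPM in all 16 libraries. In C56BL6 both sums overlapped between the doses (4 to 5.8 and 3.55 to 5.14 CPM endothelial, 8 to 24.8 and 8.81 to 18.4 CPM immune, untreated and irradiated). In bulk RNA, fewer cells of a type and less RNA per cell cannot be told apart. The part of muscle precursor RNA in the differences below was not tested, and it cannot be told apart from the species.

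**Figure D1:**
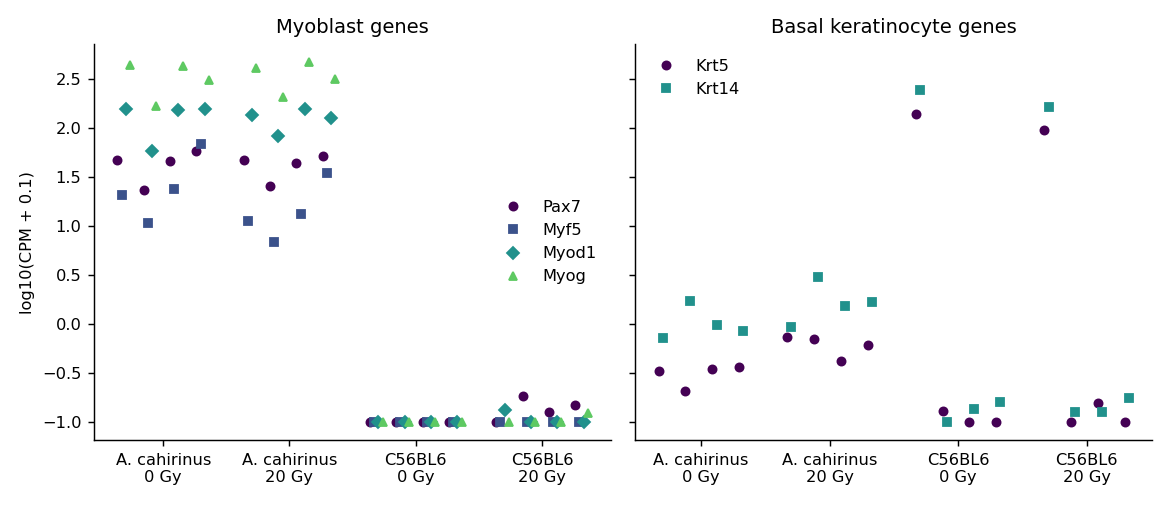
Muscle precursor genes (left) and basal keratinocyte genes (right) in each of the 16 libraries, as log10 of CPM with 0.1 added. Points in each group run from replicate 1 to 4, and the 8 A. cahirinus libraries hold all 4 muscle precursor genes while both C56BL6 replicate 1 libraries (137 and 95.2 CPM for Krt5) lie far above the other 14 for Krt5 and Krt14.

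Radiation moved many more division genes in A. cahirinus than in C56BL6. Of 13595 genes tested, 2275 (16.7%) differed in their change between the species by edgeR's quasi-likelihood test at a Benjamini-Hochberg adjusted p under 0.05. The change was higher in A. cahirinus for 1247 genes (9.17%) and lower for 1028 (7.56%). A difference of at least 2-fold was found for 188 genes higher (1.38%) and 268 lower (1.97%). Counted within each species, 2007 genes rose (14.8%) and 1791 fell (13.2%) in A. cahirinus, while 819 rose (6.02%) and 1110 fell (8.16%) in C56BL6. The median difference over all genes tested was 0.02 on the log2 scale. Of the genes tested, 8900 averaged at least 5 CPM in each species, and some others were near 0 in 1 species.

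How the difference came about varied with its direction. Among the 268 genes lower by at least 2-fold, 191 fell in A. cahirinus and passed no test in C56BL6, 25 fell in A. cahirinus and rose in C56BL6, and 33 rose in C56BL6 and passed no test in A. cahirinus. Among the 188 genes higher by at least 2-fold, 72 fell in C56BL6 and passed no test in A. cahirinus, 56 rose in A. cahirinus and fell in C56BL6, and 47 rose in A. cahirinus and passed no test in C56BL6. Over all sizes of difference, 223 genes moved in opposite directions, each change past the test in its own species: 158 rose in A. cahirinus and fell in C56BL6, and 65 did the reverse.

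The 2 directions did not rest on the animal block to the same degree. Fitted without it, the test called 286 genes, 35 higher and 251 lower. Without C56BL6 replicate 1, whose libraries held the keratinocyte genes, it called 2384 genes, 1279 higher and 1105 lower. The count of higher genes fell to 816 without A. cahirinus replicate 3, to 751 without A. cahirinus replicate 4 and to 824 without C56BL6 replicate 4. The count of lower genes fell in the same omissions, to 742, 777 and 708.

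**Figure D2:**
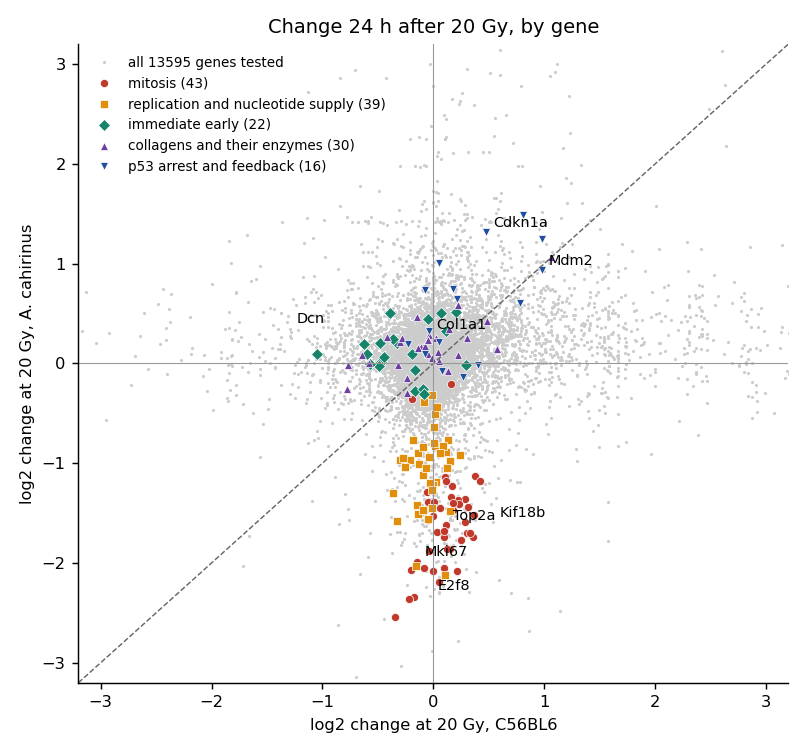
Each point is 1 of the 13595 genes tested, with its log2 change at 20 Gy in C56BL6 on the horizontal axis and in A. cahirinus on the vertical axis, and 66 genes with a change over 3.2 in either species lie outside the axes. The mitosis and replication lists sit below 0 on the vertical axis and close to 0 on the horizontal axis, and the dashed line marks equal changes.

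Mitosis genes gave the lowest median of the lists examined. Of 43 tested, 41 had a lower change in A. cahirinus and 2 did not pass the test, with a median difference of -1.75 on the log2 scale. Birc5, 1 of the 43, stood at only 0.168 to 1.56 CPM in A. cahirinus. In A. cahirinus 42 fell, and the median change was -1.59. In C56BL6 3 rose and 1 fell, and the median change was 0.11. The 2 that did not pass were Pttg1 and Spc24, named after their values were seen because the count is small.

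Mki67, the proliferation marker, stood at 279, 286, 315 and 281 CPM in untreated A. cahirinus replicates 1 to 4 and at 67.6, 50.4, 85.2 and 96.6 CPM after 20 Gy. In C56BL6 it stood at 226, 182, 245 and 236 CPM untreated and at 170, 181, 238 and 216 CPM after 20 Gy. All 4 irradiated A. cahirinus libraries were below every untreated one, while the C56BL6 groups overlapped. The difference of changes was -1.84 ± 0.15 (SE, log2, n = 4 pairs per species; edgeR adjusted p = 5.78e-07).

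Top2a, which untangles DNA before chromosomes separate, went from 239, 232, 269 and 304 CPM to 86.7, 50.4, 96.1 and 118 CPM in A. cahirinus. In C56BL6 it went from 274, 196, 295 and 252 CPM to 247, 256, 314 and 273 CPM. The A. cahirinus groups again did not overlap and the C56BL6 groups did. Its difference was -1.73 ± 0.15 (SE, log2; edgeR adjusted p = 1.06e-06), and -1.56 without A. cahirinus replicate 2, whose fall was the steepest of the 4.

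Plk1, the kinase that drives entry into and passage through mitosis, fell in A. cahirinus from 76.6, 66.9, 91.5 and 107 CPM to 13.7, 10.8, 22.5 and 32.4 CPM. In C56BL6 it was 54.1, 39.98, 47.1 and 48.4 CPM untreated and 45.02, 44.2, 54.01 and 52.2 CPM irradiated. The difference was -2.24 ± 0.16 (SE, log2; edgeR adjusted p = 2.49e-07). Ccnb2, a mitotic cyclin, gave -2.30 ± 0.21. Fbxo5, an inhibitor of the anaphase-promoting complex, gave -2.20 ± 0.14 and was the member with the deepest fall in A. cahirinus, at -2.55. Hjurp, the chaperone that loads the centromere histone, gave -2.27 ± 0.15, and Depdc1a, at -2.35 ± 0.18, was the largest lower difference among genes with at least 5 CPM in each species. Iqgap3, a scaffold protein, gave -2.19 ± 0.13. These genes were named among those whose 4 pair changes in A. cahirinus lay below all 4 of C56BL6, which held for 9.02% of all genes tested.

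Some division genes moved in opposite directions. Kif18b, a kinesin that shortens spindle microtubules, went from 29.4, 24.9, 35.9 and 42.2 CPM to 9.26, 7.33, 12.6 and 15.3 CPM in A. cahirinus. In C56BL6 it rose from 23.3, 16.9, 21.2 and 20.7 CPM to 28.3, 26.5, 33.7 and 30.4 CPM, with no overlap of the groups in either species. The change was -1.59 ± 0.08 in A. cahirinus and 0.54 ± 0.08 in C56BL6 (SE, log2; edgeR adjusted p = 1.46e-09 and 0.000224). Ccnf, an F-box cyclin, fell by 1.91 in A. cahirinus and rose by 0.27 in C56BL6 on the log2 scale. Kif20a, a kinesin of cytokinesis, fell by 1.74 and rose by 0.35, and Cdca2, which targets a phosphatase to chromatin, fell by 1.47 and rose by 0.31.

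The promoters of 4 of the division genes are shown as examples of the motifs counted below. Only genes with a match in the 120 bases before the start could be shown, so a match in each was fixed by the choice. None of the 4 is on the replication list, and Plk1 and Rrm2, not shown, held 1 CCAAT each and no TTTGAA in these bases. Each line gives the 120 bases before the mouse transcription start (RefSeq, build GRCm38.p6), for 4 genes of the largest, opposite or panel differences, with capitals marking TTTGAA, the core of the cell-cycle homology region, and CCAAT, the box bound by NF-Y, each on either strand. Depdc1a is chr3:159495313-159495432 on the plus strand, Ccnf chr17:24251410-24251529 on the minus strand, Top2a chr11:99024190-99024309 on the minus strand and Ccnb2 chr9:70421555-70421674 on the minus strand.
Depdc1a: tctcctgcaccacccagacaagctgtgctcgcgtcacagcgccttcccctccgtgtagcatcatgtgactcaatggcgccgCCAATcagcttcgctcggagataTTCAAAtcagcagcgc
Ccnf: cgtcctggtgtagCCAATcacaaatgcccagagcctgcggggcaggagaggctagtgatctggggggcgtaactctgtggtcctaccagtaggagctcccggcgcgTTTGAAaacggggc
Top2a: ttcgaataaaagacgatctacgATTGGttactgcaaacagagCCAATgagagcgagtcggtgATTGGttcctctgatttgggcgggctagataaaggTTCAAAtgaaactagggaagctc
Ccnb2: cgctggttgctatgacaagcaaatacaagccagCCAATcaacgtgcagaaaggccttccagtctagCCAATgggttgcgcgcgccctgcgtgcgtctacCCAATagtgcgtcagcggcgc
TTCAAA and ATTGG are the same motifs read on the other strand.

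Over whole promoter windows of 300 bases (250 before to 50 after a start), TTTGAA stood in 75.0% of the 36 windows of 34 mitosis genes. It stood in 11.9% of the 13823 windows of 10778 tested genes that had one and in 17.9% of all 32851 windows. CCAAT stood in 77.8% of the mitosis windows and in 37.1% of those of tested genes. In the 35 windows of 30 replication genes TTTGAA stood in 11.4%, near the share in all tested genes. TTTGGCGC or TTTCGCGC, 2 forms of the E2F site, stood in 28.6% of the replication windows, 2.8% of the mitosis windows and 1.4% of those of tested genes. Over the 216 genes lower by at least 2-fold that had a promoter entry, the shares were 35.6% for TTTGAA, 56.7% for CCAAT and 6.9% for the E2F forms. Over the 125 such genes that were higher, they were 7.8%, 32.9% and 0.0%. These are letters of the mouse genome alone, the windows of 1 gene can overlap, and a match is no measure of binding.

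Replication and nucleotide supply followed mitosis at a smaller size. Of 39 genes tested, 37 had a lower change in A. cahirinus, with a median difference of -0.96 on the log2 scale. Fen1, 1 of the 39, stood at only 0.675 to 1.06 CPM in C56BL6. All 39 fell in A. cahirinus (median -0.97), and in C56BL6 3 fell (median -0.03). Rrm2, the regulated subunit of ribonucleotide reductase, went from 164, 142, 205 and 238 CPM to 39.6, 29.6, 46.5 and 57.5 CPM in A. cahirinus. In C56BL6 it went from 216, 190, 246 and 197 CPM to 171, 216, 309 and 233 CPM. Only replicate 1 of C56BL6 fell, and its groups overlapped. The difference was -2.23 ± 0.12 (SE, log2; edgeR adjusted p = 1.95e-08). Cdc6, which loads the replicative helicase, gave -1.88 ± 0.17. Without the animal block 19 of the replication genes and 39 of the mitosis genes were called lower.

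**Figure D3:**
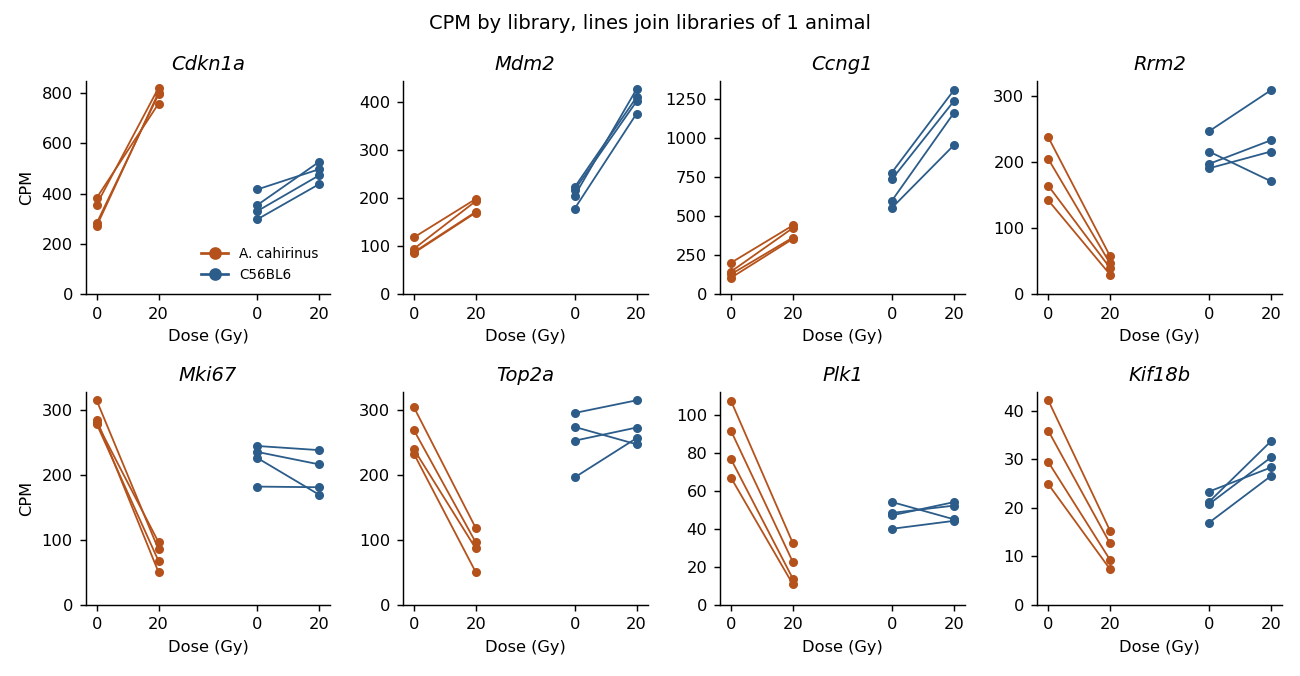
CPM of 8 genes by dose, with a line joining the untreated and the irradiated library of 1 animal (4 animals per species). Mki67, Top2a, Plk1, Rrm2 and Kif18b fall in every A. cahirinus animal, Mdm2 and Ccng1 rise in all 8 animals, and Cdkn1a rises more steeply in A. cahirinus.

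Among the regulators above these genes, the E2F activators, E2F repressors and mitotic activators all had members with a lower change in A. cahirinus. Of 33 cell-cycle regulators tested, 17 were lower and 2 higher (median difference -0.30). E2f8, a repressor whose own gene is an E2F target, went from 36.4, 27.7, 41.3 and 59.2 CPM to 6.44, 5.30, 7.78 and 13.9 CPM in A. cahirinus, and from 15.6, 14.3, 13.7 and 14.2 CPM to 12.3, 14.4, 16.3 and 13.8 CPM in C56BL6. Its difference was -2.30 ± 0.13 (SE, log2; edgeR adjusted p = 3.27e-08), and E2f7 gave -1.68 ± 0.10. Foxm1 and Mybl2, activators of mitosis genes chosen after their values were seen, gave -1.67 ± 0.10 and -1.42 ± 0.11. The 2 members with a higher change were Rbl2, which encodes the p130 subunit of DREAM, at 0.66 ± 0.10, and Ccnd3, a D-type cyclin, at 0.43 ± 0.09. Rbl2 rose by 0.68 in A. cahirinus and was at 0.02 in C56BL6 without passing the test. The Ccnd3 call was lost without replicate 4 of both species (edgeR adjusted p = 0.0734).

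DNA repair divided along the same line. Of 29 genes of homologous recombination and the Fanconi pathway, 19 were lower in A. cahirinus (median difference -0.77). Brca1, which directs recombination at breaks, went from 34.2, 28.1, 37.4 and 40.6 CPM to 10.8, 7.33, 10.5 and 12.9 CPM in A. cahirinus and stood between 14.7 and 25.3 CPM in all C56BL6 libraries. Its difference was -1.98 ± 0.11 (SE, log2; edgeR adjusted p = 2.47e-08), and Exo1, the nuclease that resects breaks, gave -1.55 ± 0.12. The 28 genes of damage signalling and end joining tested include H2ax, at 0 CPM in every A. cahirinus library. Of the 28, 8 were lower (median -0.17). Those with the largest differences were Clspn, the adaptor between ATR and CHK1, at -1.76 ± 0.10, and Chek1, the CHK1 kinase gene, at -0.90 ± 0.12. Chek1 fell in both species, by 1.19 in A. cahirinus and by 0.29 in C56BL6. Without the animal block 11 of the recombination genes and 3 of the signalling genes were called.

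Nuclear envelope and HMG protein genes, some of which are lost in senescent cells, were also lower: 9 of 12 tested, with a median difference of -0.84. Lmnb1, the lamin B1 gene, fell in A. cahirinus from 95.7, 86.3, 125 and 154 CPM to 29.1, 22.9, 38.5 and 55.1 CPM. In C56BL6 it stood at 71.8, 60.2, 82.2 and 70.8 CPM untreated and at 53.8, 64.4, 77.8 and 70.5 CPM irradiated. The fall was seen in all 4 A. cahirinus pairs, and the C56BL6 groups overlapped. The difference was -1.60 ± 0.11 (SE, log2; edgeR adjusted p = 1.51e-07), and Hmgb2, a chromatin architecture gene, gave -1.498 ± 0.13.

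C56BL6 replicate 1 differed from the other 3 animals in these lists. The mean change of the mitosis genes was -0.19 in that pair and 0.15 to 0.25 in the others, and the mean change of the replication genes was -0.39 against 0.0026 to 0.12. In A. cahirinus the mean change of the mitosis genes ran from -2.05 to -1.27 over the 4 pairs. Without C56BL6 replicate 1, 42 mitosis, 38 replication and 20 recombination genes were called lower. Without A. cahirinus replicate 2, the library pair with the lowest Myod1 and the highest Dcn, the counts were 41, 37 and 18.

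Part of the p53 targets rose in each species. Of 16 genes of p53 arrest and feedback, 12 rose in A. cahirinus. In C56BL6 6 rose and 1 fell, Gadd45a by 0.23. By the test of the difference 7 had a higher change in A. cahirinus and 2 a lower one, and the median difference was 0.31. Cdkn1a went from 383, 282, 356 and 270 CPM to 758, 795, 820 and 802 CPM in A. cahirinus, and from 298, 417, 331 and 355 CPM to 438, 497, 473 and 527 CPM in C56BL6. It rose in all 8 animals, with a change of 1.31 ± 0.08 in A. cahirinus and 0.47 ± 0.08 in C56BL6. The difference was 0.84 ± 0.11 (SE, log2; edgeR adjusted p = 7.64e-05, and 0.0147 without the block).

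Mdm2 gave no detected difference. It went from 93.9, 118, 85.3 and 87.0 CPM to 193, 198, 169 and 171 CPM in A. cahirinus, and from 222, 216, 204 and 178 CPM to 409, 400, 426 and 375 CPM in C56BL6. The change was 0.94 ± 0.06 in A. cahirinus and 0.98 ± 0.06 in C56BL6, and the difference was -0.04 ± 0.08 (SE, log2; edgeR adjusted p = 0.803). Ccng1, which encodes cyclin G1, rose by 1.49 in A. cahirinus and by 0.81 in C56BL6, a difference of 0.68 ± 0.10 (adjusted p = 0.000275 by edgeR, 0.295 without the block). Trp53inp1, a p53 cofactor gene, rose by 1.25 and 0.98, and Gdf15, a secreted cytokine, by 0.61 and 0.78, and neither difference passed the test (0.26 ± 0.12 and -0.17 ± 0.29).

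Other p53 targets had a higher change in A. cahirinus. Zmat3, an RNA-binding target, rose by 1.002 there and gave a difference of 0.95 ± 0.10. Btg2, an antiproliferative gene, gave 0.81 ± 0.08, Phlda3, which restrains AKT, 0.57 ± 0.10, Sesn2, a stress-induced restraint on mTORC1, 0.44 ± 0.11 and Gadd45a 0.42 ± 0.10. Zmat3 and Phlda3 were also called without the block, and Btg2, Sesn2 and Gadd45a were not. The 2 with a lower change restrain p53 or its signal: Mdm4, a partner of Mdm2, at -0.42 ± 0.10, and Ppm1d, the WIP1 phosphatase gene, at -0.41 ± 0.12. Mdm4 rose in C56BL6 by 0.40 and was at -0.02 in A. cahirinus without passing the test. Neither was called without the block. Leaving out pairs also ended calls of edgeR's test here: Ppm1d in 8 of 12 omissions (adjusted p = 0.0537 to 0.201), Sesn2 without replicate 2, 3 or 4 of both species (0.0517 to 0.134), Mdm4 without replicate 3 or 4 (0.0956 and 0.0738) and Gadd45a without replicate 4 (0.145).

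The p53 targets of cell death moved both ways. Of 13 tested, 8 rose in each species and 1 fell in A. cahirinus, and 3 had a higher and 3 a lower change in A. cahirinus (median difference 0.05). Over all genes tested, 9.17% had a higher and 7.56% a lower change. Perp, 1 of the 13, averaged only 0.12 CPM in A. cahirinus. Eda2r, a death-domain receptor, went from 9.48, 13.5, 7.78 and 5.39 CPM to 47.02, 38.6, 38.5 and 35.6 CPM in A. cahirinus and from 42.4, 54.4, 47.6 and 44.6 CPM to 73.9, 78.3, 77.5 and 80.4 CPM in C56BL6. All 8 animals rose without overlap of the doses, and the difference was 1.49 ± 0.17 (SE, log2; edgeR adjusted p = 1.99e-05). Fas, the death receptor, gave 0.84 ± 0.11 and Aen, a nuclease, 0.82 ± 0.09. The lower ones were Pmaip1, which encodes NOXA, at -0.99 ± 0.22, Pidd1, an activator of caspase 2, at -0.66 ± 0.13 and Tnfrsf10b, a TRAIL receptor, at -0.62 ± 0.08. Pidd1 rose in both species, by 0.52 and 1.18, while Tnfrsf10b fell by 0.16 in A. cahirinus and rose by 0.46 in C56BL6. Bax, a pore-forming effector, rose by 0.44 in A. cahirinus, and its difference missed the threshold (0.30 ± 0.10, edgeR adjusted p = 0.0512). Without the block 2 of the higher members were called, and the lower ones were not (lowest edgeR adjusted p = 0.0879, with 2 of the 3 at an unadjusted p under 0.05). The call of Pmaip1 was also lost without replicate 3 of both species (0.0639).

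Among 14 p53 targets of metabolism and repair, 5 rose and 2 fell in A. cahirinus, 5 rose in C56BL6, and 2 were higher and 2 lower in the difference (median 0.12). The counts higher and lower lay near the shares over all genes tested, 9.17% and 7.56%. Polk, a lesion-bypass polymerase, gave 0.40 ± 0.10 and Rps27l, a ribosomal protein paralog, 0.46 ± 0.14. Rps27l was lost in 9 of 12 omissions of pairs (edgeR adjusted p = 0.0861 to 0.206) and Polk in 3, without replicate 3 or 4 of both species or C56BL6 replicate 2 (0.0538 to 0.0989). Polh, another bypass polymerase, gave -0.77 ± 0.08, and it fell by 0.73 in A. cahirinus. Ddit4, a restraint on mTORC1, gave -0.48 ± 0.08. Polh alone of the 4 was called without the block.

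**Figure D4:**
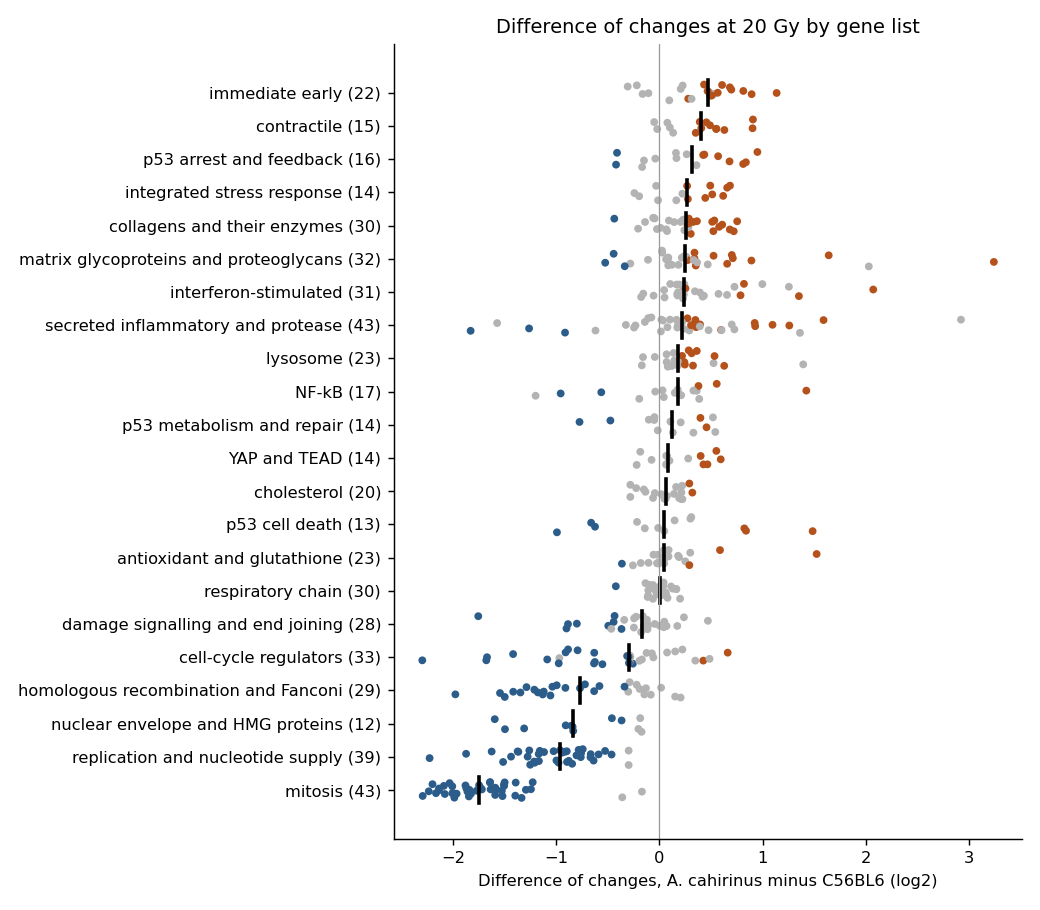
Difference of changes (log2) of each tested gene in 22 lists, with the number tested after each name, orange for a higher and blue for a lower change in A. cahirinus past the test, grey for the rest and a black bar at the list median. The cell-division lists lie to the left, down to a median of -1.75 for mitosis, and the immediate early list has the highest median, 0.48.

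Fibroblast products had a higher change in A. cahirinus, by smaller amounts than the division genes were lower. Of 30 collagens and their enzymes, 14 were higher and 1 lower (median difference 0.26), and of 32 matrix glycoproteins and proteoglycans, 11 were higher and 3 lower (median 0.25). In A. cahirinus 14 collagen genes rose and 1 fell, and 14 matrix genes rose and 4 fell. In C56BL6 6 collagen genes rose and 10 fell, and 3 matrix genes rose and 10 fell. The higher matrix genes include Lum, which averaged only 0.17 CPM in C56BL6. Col6a2 and Col6a1, which encode chains of collagen VI, gave 0.75 ± 0.11 and 0.72 ± 0.10. They fell by 0.77 and 0.64 in C56BL6 and were at -0.02 and 0.08 in A. cahirinus without passing the test. Col5a3, at -0.44 ± 0.12, was the collagen with a lower change, and its call was lost in 5 of 12 omissions of pairs (edgeR adjusted p = 0.0516 to 0.112).

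Dcn, the decorin gene, went from 262, 981, 186 and 138 CPM to 339, 1036, 269 and 184 CPM in A. cahirinus, and from 0.750, 25.8, 10.0 and 10.3 CPM to 0.744, 7.95, 4.22 and 5.09 CPM in C56BL6. All 4 A. cahirinus pairs rose, and the C56BL6 fall was seen in replicates 2 to 4 and near 0 in replicate 1, which held little Dcn. The change was 0.35 ± 0.09 in A. cahirinus and -1.29 ± 0.14 in C56BL6, a difference of 1.64 ± 0.17 (SE, log2; edgeR adjusted p = 4.15e-06). Fmod, another small proteoglycan, gave 0.89 ± 0.09. Vcan, a large proteoglycan, gave -0.53 ± 0.08 and Ltbp2, which binds elastic fibres, -0.44 ± 0.10. The Ltbp2 call was lost without replicate 3 of both species (edgeR adjusted p = 0.0819).

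Contractile genes had 10 of 15 members higher (median difference 0.41). Itga11, a collagen receptor of myofibroblasts, gave 0.91 ± 0.10 and Myh11, smooth muscle myosin, 0.90 ± 0.16, each with a rise in A. cahirinus and a fall in C56BL6 past the test. The muscle precursor genes above are present in the A. cahirinus libraries alone, and their part in this list was not tested. Of 14 genes of YAP and TEAD, which answer to stretch and stiffness, 5 were higher (median 0.09): Tead3 gave 0.59 ± 0.10 and Ccn1, a matricellular target, 0.55 ± 0.08. Without the animal block all of these collagen, matrix, contractile and YAP and TEAD calls were lost by edgeR's test. The lowest adjusted p among the higher members was then 0.416, 0.470, 0.317 and 0.298 in the 4 lists, and 1, 0, 2 and 2 of them had an unadjusted p under 0.05. The mean change of each list within an animal shows where the pairs lay.

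**Figure D5:**
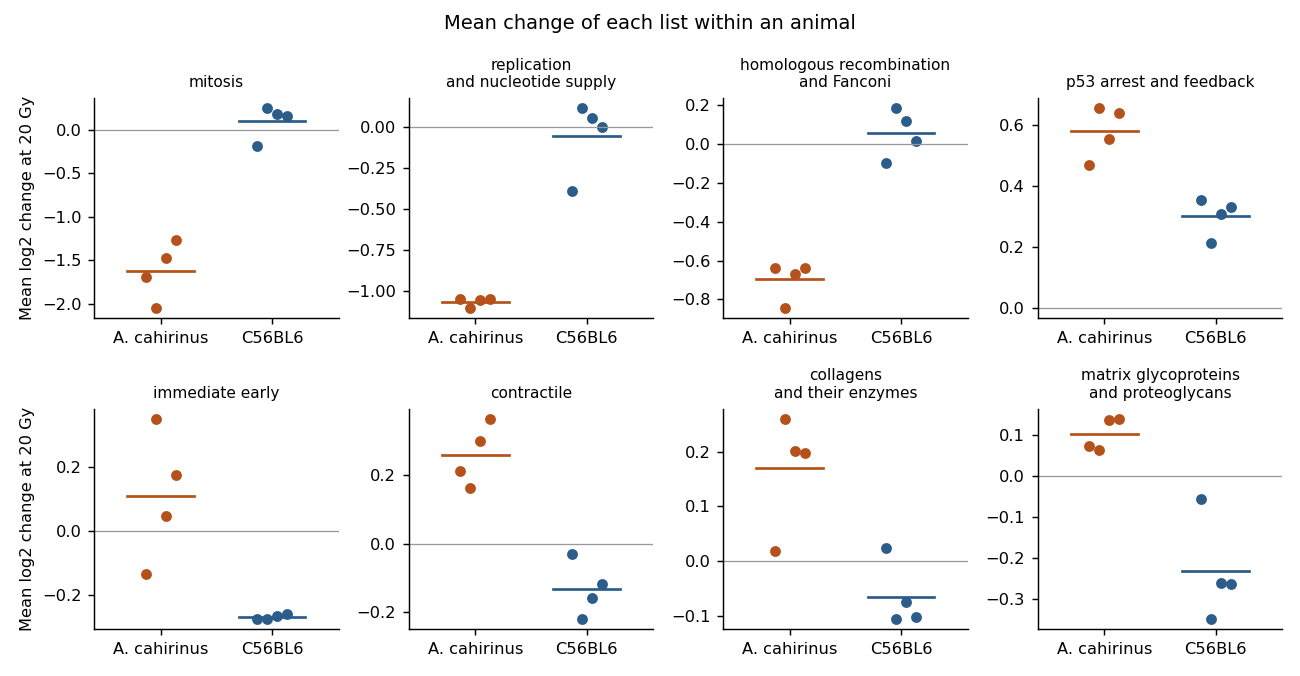
Mean log2 change at 20 Gy over the genes of 8 lists, 1 point per animal from replicate 1 to 4, with a bar at the mean of the 4. The species do not overlap in 7 of the lists, and in the collagen list A. cahirinus replicate 1 (0.02) and C56BL6 replicate 1 (0.02) overlap.

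The 8 largest higher differences among genes with at least 5 CPM in each species and pair changes apart include Dcn and the 7 genes that follow. Lgals3bp, a glycoprotein that binds galectin 3 and is raised by interferon, went from 16.8, 20.2, 10.4 and 6.65 CPM to 56.2, 57.5, 47.01 and 40.1 CPM in A. cahirinus. In C56BL6 it was 69.3, 58.6, 39.1 and 48.9 CPM untreated and 67.05, 50.1, 39.7 and 46.1 CPM irradiated. The difference was 2.07 ± 0.17 (SE, log2; edgeR adjusted p = 4.62e-07), the largest of the 8, and it was called without the block (adjusted p = 0.0153).

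Sfrp1, a secreted Wnt antagonist, showed the other form. It fell in C56BL6 from 39.3, 230, 1027 and 698 CPM to 15.8, 69.9, 324 and 165 CPM, and in A. cahirinus it was 3.09, 23.1, 2.26 and 2.99 CPM untreated and 3.02, 21.1, 2.53 and 2.99 CPM irradiated. The 4 C56BL6 animals differed widely among themselves at each dose and each fell. The difference was 1.68 ± 0.15 with the block (edgeR adjusted p = 1.09e-06) and 1.74 ± 1.52 without it (0.802). Islr (2.03 ± 0.19), Lbp, which binds lipopolysaccharide (1.88 ± 0.15), and Cdsn, an adhesion protein of cornified skin (1.75 ± 0.16), rose in A. cahirinus and fell in C56BL6. Serping1, the C1 inhibitor (1.56 ± 0.16), did too, and Cp, ceruloplasmin (1.54 ± 0.14), fell in C56BL6. Of these, Cdsn alone was called without the block. These genes were named among those whose A. cahirinus pair changes lay above all of C56BL6, which held for 11.1% of genes tested.

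Cytokines and proteases of the senescence secretome had 12 of 43 members higher and 3 lower (median 0.22). Ccl7 and Ccl2, monocyte attractants, gave 1.26 ± 0.18 and 1.10 ± 0.15, and both rose in A. cahirinus alone past the test. Il6, chosen after its values were seen, went from 1.94, 4.07, 0.906 and 1.86 CPM to 4.76, 5.88, 3.36 and 3.63 CPM in A. cahirinus and from 4.84, 28.6, 65.5 and 50.7 CPM to 4.83, 25.03, 33.6 and 32.5 CPM in C56BL6. It rose in all 4 A. cahirinus animals, and its difference was 1.59 ± 0.24 (edgeR adjusted p = 0.000244, and 0.594 without the block). Igfbp3, an IGF carrier, had the largest lower difference of this list with at least 5 CPM in each species, -1.83 ± 0.27. In C56BL6 Igfbp3 stood at 31.9, 9.30, 1.42 and 2.67 CPM untreated, and its pair changes ran from -0.65 to 0.57. Serpine2, a protease inhibitor, gave -0.92 ± 0.14. Without the block the calls of this list were lost by edgeR's test (lowest adjusted p = 0.219, with 1 of the 12 higher members at an unadjusted p under 0.05).

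Of 31 interferon-stimulated genes, 5 were higher (median 0.24), against 9.17% of all genes tested. In A. cahirinus 11 rose, and in C56BL6 1 did, against 14.8% and 6.02% of all genes tested. Lgals3bp was the largest, and Trim25, a ligase of RNA sensing, gave 0.25 ± 0.08. Irf7, also higher, averaged only 1.0 CPM in A. cahirinus and 3.0 CPM in C56BL6. The mean log2 CPM over the 31, with 2 counts added, was only 0.612 to 1.11 in untreated A. cahirinus libraries. Among 17 NF-kB genes, 3 were higher and 2 lower (median 0.18), against 9.17% higher and 7.56% lower over all genes tested. Nfkbiz, an atypical inhibitor, gave 0.56 ± 0.12 and Tnip1 0.38 ± 0.09, while Tnfaip3, which encodes A20, gave -0.56 ± 0.10 and rose by 0.55 in C56BL6. The other higher member, Rel, averaged only 0.17 CPM in A. cahirinus, against 10.8 CPM in C56BL6. Omissions of pairs ended the call of Trim25 in 10 of 12 cases (edgeR adjusted p = 0.0534 to 0.253), of Tnip1 without replicate 2, 3 or 4 of both species (0.0534 to 0.115) and of Nfkbiz without replicate 3 (0.0671).

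Immediate early genes, which answer to growth factors and stress within minutes, had 12 of 22 members higher (median difference 0.48). Here the movement lay in C56BL6, where 12 fell, against 4 risen and 2 fallen in A. cahirinus. Ier2 fell by 0.60 in C56BL6 and gave a difference of 0.70 ± 0.15, and Nr4a1, an orphan nuclear receptor, fell by 0.48 and gave 0.68 ± 0.13. Fos, chosen after its values were seen, went from 24.7, 38.1, 70.7 and 55.2 CPM to 12.3, 18.8, 30.5 and 28.8 CPM in C56BL6 and stayed between 2.55 and 4.83 CPM in A. cahirinus. The fall was seen in all 4 C56BL6 animals, and the difference was 1.14 ± 0.13 (edgeR adjusted p = 1.35e-05, and 0.357 without the block).

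The integrated stress response, led by Atf4, had 8 of 14 members higher (median 0.27), with 8 falling in C56BL6. Trib3, a pseudokinase target of ATF4, gave 0.68 ± 0.10 and Cebpb, a transcription factor, 0.66 ± 0.20. Lysosomal genes had 9 of 23 higher (median 0.18): 14 rose in A. cahirinus and 1 in C56BL6. Ctsk, a collagen-degrading protease, gave 0.63 ± 0.11 and Gaa, the acid glucosidase, 0.53 ± 0.09. Antioxidant genes gave 3 higher and 1 lower of 23 (median 0.04), near the shares over all genes: Gstm1 gave 0.59 ± 0.07, Gpx4 0.29 ± 0.08 and Gpx3 -0.36 ± 0.09. The other higher member, Sod3, averaged only 0.46 CPM in A. cahirinus. Cholesterol genes gave 2 higher of 20, near the 9.17% over all genes tested (median 0.07, Cyp51 at 0.32 ± 0.08 and Srebf2 at 0.29 ± 0.08). The respiratory chain gave 1 lower of 30, Cycs at -0.42 ± 0.11, with a median of 0.01. Of 12 omissions of pairs, 8 ended the call of Srebf2, 7 that of Cebpb, 5 that of Gpx4, 4 that of Cycs and 3 each those of Gpx3 and Cyp51, with edgeR adjusted p of at most 0.26. Without the block 1 higher gene each was called in the interferon, stress response, lysosome and antioxidant lists. The higher immediate early and NF-kB calls were lost by edgeR's test, with 4 of 12 and 2 of 3 at an unadjusted p under 0.05.

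Values at 10 Gy and in wild mice are set beside these without a test between them, since the 10 Gy and 20 Gy comparisons share their untreated libraries. The median change of the mitosis list was -1.84 at 10 Gy and -1.62 at 20 Gy in A. cahirinus. It was -0.18 at 10 Gy and 0.11 at 20 Gy in C56BL6, and -0.36 at 20 Gy in wild mice, in a fit that holds both doses of a population. Kif18b changed by 0.09 ± 0.07 at 10 Gy and 0.53 ± 0.07 at 20 Gy in C56BL6, and by -0.01 ± 0.18 at 20 Gy in wild mice (SE, log2). Mki67 changed by -0.15 ± 0.05 at 20 Gy in C56BL6 and by -0.80 ± 0.20 in wild mice, of which neither passed the edgeR test (adjusted p = 0.0620 and 0.113). Cdkn1a rose by 1.09 ± 0.08 at 10 Gy in A. cahirinus, by 0.40 ± 0.05 at 10 Gy in C56BL6, and by 1.25 ± 0.20 at 20 Gy in wild mice. For Cdkn1a the wild mouse value thus lay next to that of A. cahirinus (1.29 in this fit), and for the mitosis list nearer to that of C56BL6.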

How the data were processed

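Per the labels, polyA RNA of primary skin fibroblasts was made into stranded mRNA libraries. Per the submitters' processing notes, Trim Galore, HISAT2 and featureCounts (2.0.3, per the file headers) were used, with GRCm39 named as a build. The authors deposited raw counts per gene, 1 table per genus. The gene length column deposited by the authors (another measure, in bases) was not used in the tests. Levels and counts over genes of a near-identical family can share reads.

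The tables were joined on symbols found once in each (18109 of 56236 named mouse IDs and 19818 A. cahirinus names). TMM factors were computed within each table over its own 8 libraries. The 24 h libraries were fitted with edgeR 4.0.16 (R 4.3.3): animal as block, a dose term per species, filterByExpr, quasi-likelihood tests, Benjamini-Hochberg adjustment over 13595 genes, threshold 0.05, and 6 residual degrees of freedom. The standard error is the log2 value divided by the root of F. Pair changes are log2 CPM with 2 counts added. The scripts were tested on simulated counts.

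Animal codes in the library names pair the doses: deviations of same-numbered libraries correlated at 0.339 to 0.77 in A. cahirinus and 0.624 to 0.858 in C56BL6, across genes, and each of 4 libraries correlated best with its own number. The variance between replicates was 13.6 to 201 times that of counting noise. A floor of 3 counts equals 0.0568 to 0.108 CPM per library, on totals without the TMM factor, and covers counting error only.

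Named genes are a panel of 6, up to 2 in each direction per list, the 8 largest differences each way with pair changes apart, the 4 largest each way that moved oppositely (all at 5 CPM or more in each species), and p53 targets; others are said to be chosen afterwards or stand among markers. Members and lists were chosen with earlier results of these data known. Marker lists not named above gave summed levels of at most 12.3 (adipocyte), 7.95 (melanocyte) and 6.07 CPM (Schwann). The mural list summed to 290 to 425 CPM untreated and 399 to 539 CPM at 20 Gy in A. cahirinus. Cspg4 made most of that sum, at 260 to 477 CPM. In C56BL6 the mural sum was 31.2 to 203 CPM untreated and 46.3 to 214 CPM at 20 Gy. The fibroblast list gave 16071 to 30808 CPM. Alternatives were no block, RLE factors, TMM over shared symbols, no filter, DESeq2 1.42.0, limma voom 3.58.1, the 10 Gy libraries in the fit, and leaving out each pair. The 12 d libraries were not used here.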

Additional observations from a re-analysis of the deposited data

Results flagged for a closer look

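The change at 20 Gy differed between A. cahirinus and C56BL6 for 2275 genes by the edgeR test of the difference itself, and 223 of these moved in opposite directions, each past the test in its species.

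In 10 of 72 groups of 4 checked, 1 library or pair lay far from the other 3. Chance flags about 1 in 20 independent groups, but these groups share animals and genes. They also include Krt5, Krt14 and the muscle precursor genes, picked from among the markers, so the count cannot be set against that rate. C56BL6 replicate 1 had Krt5 at 136.6 CPM untreated and 95.23 CPM at 20 Gy, and Krt14 at 245 and 164.4 CPM, and no other C56BL6 library exceeded 0.0756 CPM for either gene. Untreated A. cahirinus replicate 2 had Myod1 at 57.93 CPM against 153 to 154.9 in the others. The pair of that animal had the steepest Top2a change, -2.206 against -1.483 to -1.361 (log2), and the steepest mean change of the recombination list, -0.8448 against -0.6669 to -0.6369. It also had the steepest mean change of the replication list, -1.107 against -1.057 to -1.051, and the only mean change below 0 of the secreted inflammatory list, -0.006995 against 0.1702 to 0.1964. The integrated stress response list changed by -0.3251 in C56BL6 replicate 1 and by -0.2175 to -0.2137 in the others.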

How the results depend on the processing

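The block decided most calls. Without it the difference gave 286 genes (35 higher, 251 lower; 12.24% higher against 54.81% with it), A. cahirinus 703 changed genes (161 risen, 542 fallen) and C56BL6 43 (32 risen, 11 fallen), and 9 genes were higher by at least 2-fold. It left 3 p53 arrest genes higher, 19 replication genes and 11 recombination genes lower, and 34 of the 91 called genes followed by name, with 0 reversed. The other planned fits on all pairs called 2225 to 2963 genes, and leaving out 1 pair of 1 species or 1 number in both called 987 to 2926 (446 to 1601 higher, 533 to 1325 lower). Under those omissions A. cahirinus gave 1837 to 4317 changed genes (785 to 2273 risen, 1031 to 2044 fallen), and C56BL6 682 to 2556 (303 to 1082 risen, 379 to 1474 fallen). Genes higher by at least 2-fold numbered 105 to 231. Of the named genes, Mdm2 ranged from -0.102 to 0.0152 and Gdf15 from -0.587 to 0.156 when pairs were left out, so their signs are not settled, and the cause was not tested. None of the 91 called genes followed by name reversed in these fits, and the signs of the other called genes were not compared. Among the 91, 21 lost the call in at least 1 of 12 omissions of pairs: by edgeR the highest adjusted p was 0.276 for Rel, 0.26 for Cebpb, 0.253 for Trim25, 0.206 for Rps27l, 0.201 for Ppm1d, 0.19 for Srebf2, 0.162 for Cyp51, 0.145 for Gadd45a and 0.134 for Sesn2. It was 0.115 for Tnip1, 0.112 for Col5a3, 0.103 for Gpx3 and 0.101 for Cycs, and under 0.1 for Polk, Gpx4, Mdm4, Ltbp2, Igfbp5, Ccnd3, Nfkbiz and Pmaip1. Depth limits genes near the floor: Lum in C56BL6 was at most 0.435 CPM, so no fold is given for it.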
